A study of Mus musculus with 20 samples.

Results

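The 9 claudins Cldn1, Cldn2, Cldn3, Cldn4, Cldn8, Cldn10, Cldn15, Cldn16 and Cldn19 were followed by their gene symbols through a table of mRNA counts from mouse kidney. They were 9 of the 34255 genes in the table and 9 of its 21 genes named Cldn and a number. All 9 passed the filter on low counts in the fit of 20 libraries, which kept 13813 genes, and 8 passed it in the fit of the 16 microdissected libraries, which kept 12179. Cldn3 was the member that did not pass the second filter.

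The kidneys came from healthy, untreated wild-type male mice of the strain C57BL6/OlaHsd, aged 8 to 12 weeks. From the cortex, 4 compartments had been isolated by laser microdissection: post-capillary venules, peritubular capillaries, glomeruli and arterioles. Each compartment gave 4 libraries, and whole kidney gave 4 more as the reference. Counts came from the QuantSeq 3′ kit, which reads near the 3′ end of each transcript, so levels were not divided by transcript length. Whole kidney RNA was amplified over fewer PCR cycles and without the kit's low-input step used for dissected RNA, and this cannot be told apart from the difference in tissue. Samples of a group are labelled as biological replicates, but their mice are not named, so a p-value here reflects only how much these samples varied. By the study's methods, each mouse gave a hematoxylin slide for arterioles, glomeruli and venules and a lectin-stained slide for capillaries. Compartments can therefore come from the same mice, though which libraries do is not known, and slide and stain cannot be told apart from the difference between capillaries and the other compartments. Libraries carry the numbers of the deposited table, and 4 values in a row stand for 93, 96, 98 and 100.

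Claudins are membrane proteins of the tight junction. They seal the gap between neighboring epithelial cells or form pores in it, and the set of claudins in each nephron segment determines which ions and how much water pass between its cells. Cldn2 forms a pore for cations and water in the leaky proximal tubule, whereas Cldn16 and Cldn19 act together in the thick ascending limb, where calcium and magnesium are reabsorbed between cells. The dissected compartments are vascular, and most of the 9 genes are known from epithelium that lies beside the vessels in the cortex or, for parts of the limb and duct, deeper in the kidney.

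The genes lie on 5 chromosomes of GRCm38 (GENCODE M21). Cldn2 spans chrX:139800828-139811386 on the plus strand, and Cldn10 spans chr14:118787908-118875489 on the plus strand. Cldn3 (chr5:134986214-134987472, plus) and Cldn4 (chr5:134945119-134946934, minus) are separated by 39279 bases, and Cldn1 (chr16:26356642-26371841, minus) and Cldn16 (chr16:26463135-26482765, plus) by 91293 bases. Cldn8 lies at chr16:88560828-88563183 (minus), Cldn15 at chr5:136966616-136975858 (plus) and Cldn19 at chr4:119255414-119262438 (plus). The longest identical run between transcripts of any 2 members was 35 bases, shared by Cldn3 and Cldn4, and no other pair shared more than 16. Genes annotated on the opposite strand overlap Cldn3 (Wbscr25), Cldn10 (n-R5s51) and Cldn19 (Gm12927), and without a known strand setting of the counting their reads cannot be told apart from those of the claudin.

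Cldn10 has 3 annotated coding transcripts in 2 forms that begin at distant first exons and end in the same last exon. The form called Cldn10a is known as an anion pore of the proximal tubule and the form called Cldn10b as a cation pore of the thick ascending limb. Reads near the 3′ end fall downstream of the first exons, so the Cldn10 counts below sum over both forms. The starts of Cldn2, Cldn10 and Cldn4 are shown because the calls below fall on these genes. Each sequence runs from 250 bases before the RefSeq start to 50 bases after it (GRCm38.p6), in lower case, with capitals where a searched hexamer matched on either strand.
Cldn2, chrX:139800558-139800857, plus strand: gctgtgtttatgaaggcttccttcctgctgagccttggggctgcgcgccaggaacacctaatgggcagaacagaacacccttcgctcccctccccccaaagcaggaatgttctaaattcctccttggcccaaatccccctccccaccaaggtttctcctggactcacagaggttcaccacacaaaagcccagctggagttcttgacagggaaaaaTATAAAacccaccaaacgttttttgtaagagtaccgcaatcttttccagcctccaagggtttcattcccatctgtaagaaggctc
Cldn10, upstream start, chr14:118787621-118787920, plus strand: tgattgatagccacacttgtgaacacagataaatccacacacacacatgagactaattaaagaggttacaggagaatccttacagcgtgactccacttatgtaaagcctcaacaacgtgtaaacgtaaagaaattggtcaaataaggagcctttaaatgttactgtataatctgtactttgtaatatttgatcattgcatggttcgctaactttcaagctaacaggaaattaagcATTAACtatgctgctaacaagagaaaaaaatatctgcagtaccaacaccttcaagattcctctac
Cldn10, downstream start, chr14:118854700-118854999, plus strand: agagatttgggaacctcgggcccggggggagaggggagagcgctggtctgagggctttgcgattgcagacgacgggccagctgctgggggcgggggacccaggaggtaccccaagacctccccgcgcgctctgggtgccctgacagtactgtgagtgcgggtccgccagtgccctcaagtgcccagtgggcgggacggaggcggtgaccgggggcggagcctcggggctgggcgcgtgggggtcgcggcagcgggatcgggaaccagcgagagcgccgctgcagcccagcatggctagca
Cldn4, chr5:134946885-134947184, minus strand: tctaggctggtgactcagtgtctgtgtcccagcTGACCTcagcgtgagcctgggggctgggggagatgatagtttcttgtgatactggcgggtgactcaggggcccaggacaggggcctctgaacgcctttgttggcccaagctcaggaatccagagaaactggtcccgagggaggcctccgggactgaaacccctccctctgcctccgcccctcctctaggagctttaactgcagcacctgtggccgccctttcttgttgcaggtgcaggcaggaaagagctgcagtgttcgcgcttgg

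The hexamers searched were the TATA box TATAAA, the core GTTAAT of the site of the factor HNF1, the nuclear receptor core AGGTCA and the core AACCGG of the grainyhead factors. TATAAA stood 35 bases before the start of Cldn2 and was in none of the other claudin windows, and 13.6% of all 32851 RefSeq windows of this length held it. GTTAAT matched, on the opposite strand, 15 bases before the upstream start of Cldn10 (7.10% of all windows), and AGGTCA matched, also on the opposite strand, 217 bases before the start of Cldn4 (16.3%). AACCGG (6.83%) was in no claudin window. The downstream window of Cldn10 held none of the 4 hexamers and was richer in G and C, at 72.0% against 36.0% in the upstream window. Windows were found for 8 of the 9 members, 10 in all, and 5 of the 10 held a match.

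Total counts ranged from 4639090 to 12283098 per library. The labelled compartments were checked by marker lists. All 8 podocyte genes were higher than whole kidney in glomeruli, as were 1.59% of all genes tested, and all 6 smooth muscle genes in arterioles, as were 5.78%. Of 10 endothelial genes, 7 were higher and 1, Emcn, was lower in arterioles, and 6 were higher in glomeruli. None was called in peritubular capillaries or venules by edgeR or DESeq2. Of all genes, edgeR called 0.0941% and 0.224% there in either direction. At an unadjusted p under 0.05, in either direction, there were 2 in capillaries (Emcn higher and Cdh5 lower) and 3 in venules. Of all genes, 12.4% and 9.36% had such a p. The SD of Emcn in capillaries was larger than its mean. A list of 13 proximal tubule genes summed to between 64950 and 121871 CPM (counts scaled to the library total by the TMM method) in peritubular capillaries, against 35913 to 37409 in whole kidney, 24341 to 30475 in venules, 9233 to 16867 in arterioles and 6090 to 7994 in glomeruli. The largest part of each sum was Kap, an androgen-dependent transcript of the proximal tubule. Of the 13 genes, 8 were called lower than whole kidney in arterioles (beside 5.50% of all genes) and 8 in glomeruli (1.47%). In capillaries 2 were called higher (0.0941% of all genes in either direction). None was called in venules, where 3 had an unadjusted p under 0.05. The list was present in every compartment, and its part in the claudin levels was not tested. In samples of this kind, fewer cells of a type and less RNA per cell cannot be told apart.

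Cldn2 and Cldn10 were the abundant claudins and the only members with more than 3 counts in all 20 libraries. Cldn2 was highest in peritubular capillaries and lowest in glomeruli, and Cldn10 was lower in arterioles and glomeruli than in capillaries or whole kidney. A gene was called at a false discovery rate (FDR, from edgeR's quasi-likelihood test over all genes tested) under 0.05 and a change of more than 2-fold, and ± in log2 fold changes is the standard error.

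Cldn2 stood at 486, 588, 511 and 641 CPM in peritubular capillaries and at 297, 337, 285 and 280.4 CPM in whole kidney. All capillary libraries lay above all whole kidney libraries. The means were 557 ± 71.4 and 299.8 ± 25.7 CPM (SD, n = 4), a log2 fold change of 0.89 ± 0.61 that did not pass the test (FDR 0.620). The glomerular libraries held 80.2, 120.3, 115 and 54.6 CPM, all below whole kidney and all below capillaries. Against capillaries Cldn2 was lower in glomeruli by a log2 fold change of -2.59 ± 0.71 (FDR 0.0245, n = 4 each), and against whole kidney the value was -1.70 ± 0.62 (FDR 0.132). The first of these calls ended without any 1 glomerular library or without capillary 96 or 100 (FDR up to 0.102).

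Arterioles held Cldn2 at 219, 3.86, 210 and 163 CPM. Arteriole 96 was far below the other 3 libraries, and all 4 lay below whole kidney. The log2 fold change was -1.01 ± 0.61 against whole kidney (FDR 0.241), -0.61 without arteriole 96, and -1.90 ± 0.69 against capillaries (FDR 0.0660). Venules held 325, 127, 134 and 85.7 CPM, which overlapped whole kidney and arterioles (log2 fold change against whole kidney -0.84 ± 0.61, FDR 0.884).

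Cldn10 stood at 227, 257, 227 and 326 CPM in peritubular capillaries and at 263, 210.4, 263 and 254 CPM in whole kidney. These groups overlapped, and their difference was 0.07 ± 0.71 on the log2 scale (FDR 0.988). Glomeruli held 22.8, 30.1, 28.2 and 25.7 CPM, the narrowest spread, relative to the mean, of any microdissected group for any member. The glomerular mean of 26.7 ± 3.13 CPM (SD, n = 4) was 9.28-fold below that of whole kidney, with a log2 fold change of -3.21 ± 0.77 (FDR 0.0118). Leaving out any 1 library kept this call (FDR up to 0.0494). Against capillaries the glomerular value was -3.28 ± 0.92 (FDR 0.0297), and this call ended without any 1 of the 8 libraries (FDR 0.0521 to 0.0946).

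Arterioles fell into high and low libraries, with Cldn10 at 52.0, 2.09, 70.9 and 1.43 CPM. All lay below whole kidney and below capillaries, with log2 fold changes of -2.97 ± 0.76 (FDR 0.00958) and -3.03 ± 0.91 (FDR 0.0255). The first call held without any 1 library (FDR up to 0.0281) and ended when the fit was limited to 8 libraries, arterioles and whole kidney (FDR 0.0774). The second ended without capillary 100 (FDR 0.0584) and when the fit was limited to arterioles and capillaries (FDR 0.108). Venules held 148, 153, 102 and 203 CPM, below all whole kidney libraries and above all arteriole libraries, but neither difference passed the test (FDR 1.00 and 0.120). Arteriole 100 held much Cldn2 and little Cldn10, with 114 counts of Cldn2 for each count of Cldn10, whereas this ratio was 1.85 to 4.20 in the other arterioles.

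The ratio of Cldn2 to Cldn10 counts was 2.14, 2.29, 2.25 and 1.97 in capillaries and 1.13, 1.60, 1.08 and 1.10 in whole kidney. In glomeruli it was 3.51, 4.00, 4.08 and 2.12. In venules it ranged from 0.423 in library 100 to 2.19 in library 93. Capillary, glomerular and arteriole ratios all lay above those of whole kidney, whereas venules lay on both sides. The ratio was examined after its values were seen and was not tested.

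Over the 16 microdissected libraries, log2(CPM + 1) of Cldn2 and Cldn10 correlated at r = 0.71 (Spearman 0.74), the highest of the 36 pairs of members. With the summed proximal tubule list Cldn2 correlated at r = 0.65 and Cldn10 at 0.68, and Cldn10 correlated at 0.63 with a list of 7 genes of the thick ascending limb. These libraries share the 4 compartments, so the values describe the groups as much as the genes. Per 100 counts on the proximal tubule list, Cldn2 had 0.643 ± 0.160 counts in capillaries, 1.40 ± 0.541 in glomeruli, 1.40 ± 1.10 in arterioles, 0.604 ± 0.325 in venules and 0.824 ± 0.0744 in whole kidney (SD, n = 4). None of the compartments differed from whole kidney by this measure (exact permutation test, 2-sided, adjusted p 0.229 for capillaries and glomeruli and 0.314 for arterioles and venules). The capillary mean thus lay above that of whole kidney in Cldn2 level and below it in this ratio, and neither difference passed its test.

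**Figure D1:**
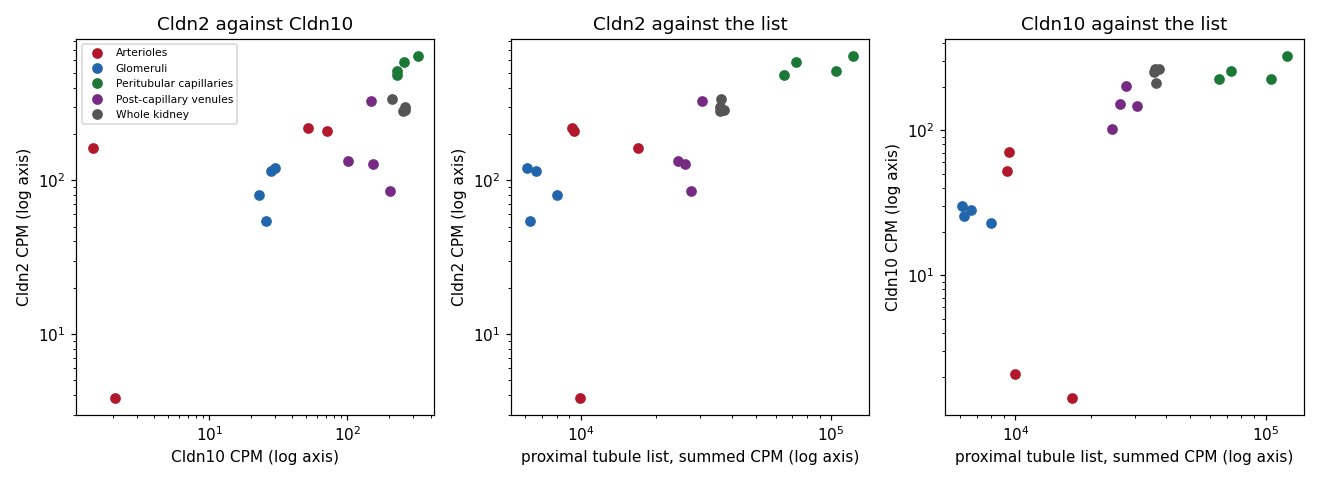
CPM of Cldn2 against Cldn10, and of each against the summed CPM of 13 proximal tubule genes, on log axes, with 1 point per library in the color of its group. Glomeruli lie together at 22.8 to 30.1 CPM of Cldn10, capillaries lie at the upper right, and arteriole 100 has 163 CPM of Cldn2 with 1.43 CPM of Cldn10.

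Of the counts on the 9 claudins, 46.9% ± 4.25 were on Cldn2 in whole kidney (44.2 to 53.2%), and most of the rest were on Cldn10. The share on Cldn2 was 62.6% ± 6.44 in capillaries, 69.7% ± 13.8 in arterioles, 47.7% ± 9.76 in glomeruli and 39.9% ± 17.5 in venules (SD, n = 4). Capillary and arteriole shares lay above all whole kidney shares, with an exact permutation p of 0.0286 each, the smallest that 4 against 4 libraries can give (2-sided, adjusted p 0.0571 over 4 tests). Glomeruli and venules overlapped whole kidney (adjusted p 0.771 and 0.648). With all 21 claudins as the denominator the arteriole share of Cldn2 was 20.3% ± 15.1, the glomerular share 26.5% ± 5.78 and the whole kidney share 42.8% ± 4.05, so that the direction turned in arterioles and glomeruli (adjusted p 0.0381 each). Cldn5, the main claudin of endothelium and not 1 of the 9, was the largest addition to the denominator in arterioles. Whole kidney held 2.69 ± 0.347 CPM of Cldn5, arterioles 394 ± 176 (FDR 1.73e-06) and glomeruli 109 ± 37.7 (FDR 1.84e-04).

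The other 7 members differed from Cldn2 and Cldn10 in how they were distributed among libraries. In whole kidney each had more than 3 counts in 4 of 4 libraries and means of 7.04 to 26.8 CPM. In the 16 microdissected libraries, Cldn3 had at most 3 counts in 12, Cldn4 and Cldn16 in 11 each, Cldn19 in 7, Cldn1 in 6, and Cldn8 and Cldn15 in 5 each. The median over all 13813 genes was 4 of 16 libraries. A member that was near 0 in most libraries of a compartment could stand above whole kidney in another library of the same compartment.

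**Figure D2:**
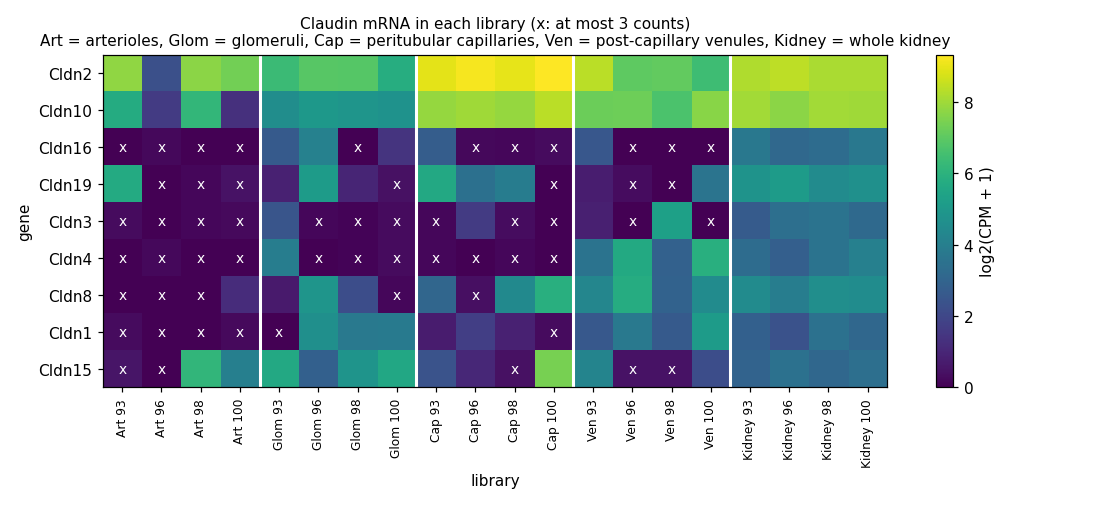
Each cell shows log2(CPM + 1) of 1 claudin (rows) in 1 library (columns, grouped by compartment), and an x marks at most 3 counts. Cldn2 and Cldn10 carry no mark in any library, Cldn3 carries 12, and the 4 whole kidney libraries carry none.

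Cldn16 and Cldn19, the pair of the thick ascending limb, were present in all whole kidney libraries at 10.3 ± 2.32 and 26.8 ± 5.09 CPM (SD, n = 4). Cldn16 stood at 0, 0.161, 0 and 0 CPM in arterioles, which was 1 count in all, against 450 counts in whole kidney. The ratio of summed counts, scaled by library size, was 261-fold lower. Its exact 95% interval, from 46.7 to 10346, covers counting error only, and the test gave FDR 0.0562. Venules held 4.82, 0, 0 and 0 CPM, and capillaries 5.72, 0.148, 0.117 and 0.196. In both compartments library 93 held nearly all Cldn16 counts, and all 8 values were below whole kidney (FDR 0.857 and 0.690). Glomeruli held 5.31, 16.02, 0 and 1.65 CPM, with library 96 above every whole kidney library.

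Cldn19 shared its highest library with Cldn16 in glomeruli (96) and capillaries (93) and not in arterioles or venules. It stood at 50.7, 0, 0.112 and 0.357 CPM in arterioles, 0.801, 33.7, 0.935 and 0.331 in glomeruli, 48.2, 9.88, 14.2 and 0 in capillaries and 0.672, 0.243, 0 and 11.1 in venules. Venules were below whole kidney in 4 of 4 libraries, and the other compartments overlapped it. None of the 4 comparisons passed the test (FDR 0.731 to 0.968). In arteriole 93, Cldn19 had 238 counts and Cldn16 had 0. A list of 7 limb genes summed to 2723 to 3168 CPM in whole kidney, 2572 to 3650 in capillaries, 761 to 2866 in venules, 644 to 1231 in glomeruli and 214 to 831 in arterioles. In capillaries the sum of the list thus overlapped whole kidney. None of its 7 genes was called there or had an unadjusted p under 0.05, beside 0.0941% and 12.4% of all genes. The 2 with the smallest p went opposite ways. Slc12a1 had a log2 fold change of -1.21 ± 0.75 (FDR 0.561) and Egf of 0.83 ± 0.63 (FDR 0.687). Cldn16 lay below whole kidney in 4 of 4 capillary libraries, as did 18.3% of all genes. In arterioles 4 of the 7 genes were lower, as were 5.50% of all genes tested. The 4 included Umod (uromodulin, the most abundant protein of normal urine) and Slc12a1, the sodium, potassium and chloride cotransporter. Over the 16 microdissected libraries the list correlated with Cldn16 at r = 0.08 and with Cldn19 at 0.28, and the 2 claudins with each other at 0.33.

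Cldn3, Cldn4 and Cldn8 are known from the collecting duct and neighboring distal segments, where Cldn4 and Cldn8 take part in chloride passage. Cldn4 was nearly absent from arterioles and capillaries and present in all venules. It stood at 0, 0.161, 0 and 0 CPM in arterioles, 0.124, 0, 0.117 and 0 in capillaries, and 10.6, 49.5, 6.48 and 58.4 in venules, against 8.81, 6.11, 10.7 and 15.6 in whole kidney. Venules 96 and 100 lay above all whole kidney libraries, and venules 93 and 98 lay within their range. Cldn4 was lower in arterioles than in whole kidney by a log2 fold change of -7.55 ± 2.36 (FDR 0.0346). Its 1 arteriole count against 461 in whole kidney gave a ratio 268-fold lower, with an exact 95% interval of 47.8 to 10599. This call was lost when arteriole 93, 98 or 100 was left out, or any 1 of the whole kidney libraries (highest FDR 0.0732), and without a filter on low counts (FDR 0.0630).

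In capillaries 2 counts of Cldn4 gave a ratio 150-fold lower than whole kidney (exact 95% interval 41.4 to 1245), and the test gave FDR 0.266. DESeq2, which was run as an alternative, called Cldn4 lower there (FDR 0.00350). Between venules and the other compartments the edgeR test called no difference in Cldn4 (FDR 0.0595 against arterioles and 0.227 against capillaries), whereas DESeq2 called both (FDR 1.65e-04 and 7.31e-04). In glomeruli Cldn4 stood at 14.4, 0, 0.0779 and 0.221 CPM, so that 144 of its 147 counts came from library 93.

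Cldn3 stood at 5.47, 9.68, 10.7 and 8.12 CPM in whole kidney. Of its 213 venule counts, 206 came from library 98 (38.2 CPM), and of its 49 glomerular counts 45 came from library 93. Arterioles held 3 counts in all, 73.6-fold below whole kidney (exact 95% interval 25.0 to 358, FDR 0.0903), and capillaries 17. Glomeruli, capillaries and arterioles lay below whole kidney in 4 of 4 libraries each, but no comparison passed the test. In venules the log2 fold change of 0.20 turned to -4.94 without library 98.

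Cldn8 stood at 0, 0, 0 and 1.25 CPM in arterioles, below the 21.5, 14.4, 23.3 and 22.5 of whole kidney in 4 of 4 libraries (log2 fold change -5.99 ± 2.04, FDR 0.0501). Capillaries held 7.46, 0.295, 20.4 and 57.9 CPM and venules 18.3, 53.1, 6.67 and 21.4, with values on both sides of whole kidney (FDR 0.996 and 1.00). Glomeruli held 0.601, 28.2, 3.58 and 0.110 CPM, with library 96 alone above whole kidney. A list of 8 principal cell genes was lower for 3 members in arterioles (beside 5.50% of all genes) and 2 in glomeruli (1.47%). Fxyd4, which modulates the sodium pump, was lower in both. The sum of the list ranged from 14.1 to 309 CPM in arterioles, 32.7 to 58.8 in glomeruli, 258 to 949 in capillaries, 282 to 662 in venules and 413 to 493 in whole kidney. Over the 16 microdissected libraries it correlated at r = 0.52 with Cldn8, 0.32 with Cldn4 and 0.15 with Cldn3, and a list of distal tubule genes correlated at 0.47 with Cldn8.

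Cldn1 is known from the parietal cells of Bowman's capsule, which surrounds the glomerular tuft. It stood at 0, 24.2, 12.8 and 13.4 CPM in glomeruli and 6.18, 4.15, 10.1 and 7.75 in whole kidney. Glomerular libraries 96, 98 and 100 lay above whole kidney, but library 93 had no Cldn1 count, and the difference did not pass the test (log2 fold change 0.84 ± 1.70, FDR 0.938). A list of 4 parietal cell genes had 1 member higher in glomeruli (Ncam1, an adhesion molecule) and 2 in arterioles. Of all genes tested, 1.59% and 5.78% were higher there. The list summed to 329.6 to 503 CPM in glomeruli and to 324 to 696 in arterioles. Its sums were 40.4 to 97.7 in capillaries, 112 to 221 in venules and 46.6 to 61.2 in whole kidney. Over the 16 microdissected libraries this list correlated with Cldn1 at r = 0.03 (Spearman -0.09), and a podocyte list at 0.17. Arterioles held 0.213, 0, 0 and 0.179 CPM of Cldn1, which was 2 counts in all against 326 in whole kidney, a ratio 94.7-fold lower (exact 95% interval 26.0 to 785, FDR 0.0578). Capillaries held 0.621, 2.36, 0.816 and 0.196 CPM, below whole kidney in 4 of 4 libraries (FDR 0.590), and venules 4.93, 12.8, 5.19 and 33.6.

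Cldn15, a cation pore known best from the intestine, had a log2 fold change above 0 against whole kidney in arterioles, glomeruli and capillaries, and none passed the test. Glomeruli held 49.1, 6.30, 27.1 and 47.4 CPM, against 6.89, 10.3, 7.74 and 9.54 in whole kidney. Glomerular libraries 93, 98 and 100 lay above whole kidney and library 96 below it (log2 fold change 1.92 ± 1.68, FDR 0.750). Capillaries held 4.23, 1.03, 0.350 and 170 CPM, so that library 100 alone set a mean of 44.0 CPM. The log2 fold change of 2.35 in capillaries became -2.20 without that library. Arterioles held 0.426, 0, 70.0 and 15.2 CPM, and their log2 fold change of 1.32 became -0.73 without library 98. Venules held 17.5, 0.365, 0.371 and 3.62 CPM. Over the 16 microdissected libraries Cldn15 correlated at r = 0.35 with the endothelial list and -0.17 with the proximal tubule list.

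**Figure D3:**
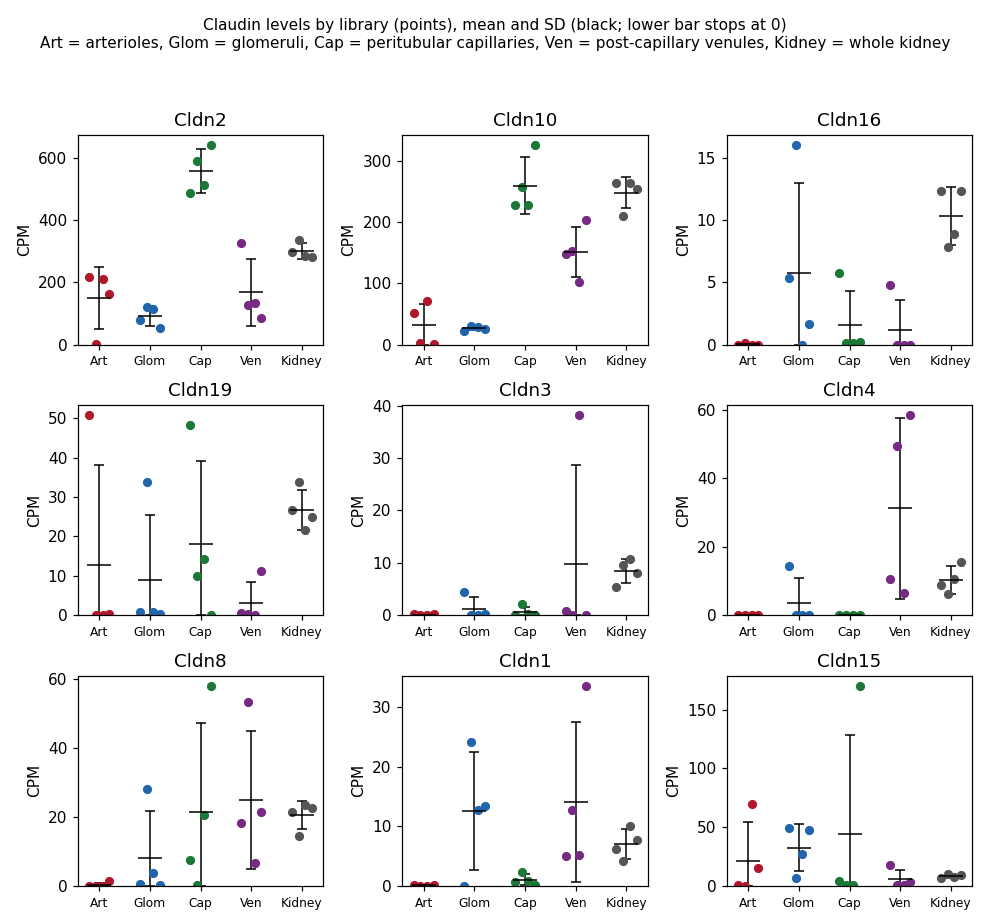
CPM of each claudin by group, with 1 point per library in the order 93, 96, 98 and 100, the mean as a black bar and the SD as whiskers (n = 4, the lower whisker stops at 0). Cldn2 peaks in capillaries at 486 to 641 CPM, and Cldn10 is low in arterioles and glomeruli at 1.43 to 70.9 CPM. The other genes except Cldn1 have a single high library in some groups.

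In the comparisons with whole kidney, which share the 4 whole kidney libraries, no member was called higher in any compartment by edgeR or DESeq2, and none was higher at an unadjusted p under 0.05. In arterioles 2 of 9 members were called lower (Cldn4 and Cldn10), against 5.50% of all genes tested, and in glomeruli 1 of 9 (Cldn10), against 1.47%. No member was called in capillaries or venules, where 0.0941% and 0.224% of all genes were called in either direction. At an unadjusted p under 0.05 there was 1 member in capillaries (Cldn4, against 12.4% of all genes) and 0 in venules (9.36%), and DESeq2 called 1 and 0. The median log2 fold change of the 9 members was -5.94 in arterioles, -1.48 in glomeruli, -0.57 in capillaries and -0.65 in venules, beside 0.22, 0.25, 0.18 and 0.19 over all genes tested.

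All 4 arteriole libraries lay below all 4 whole kidney libraries for 7 of 9 members, the exceptions being Cldn15 and Cldn19, and for 28.0% of all genes tested. In glomeruli this was so for 3 members (Cldn2, Cldn3 and Cldn10, against 18.0% of genes), in capillaries for 4 (Cldn1, Cldn3, Cldn4 and Cldn16, against 18.3%) and in venules for 3 (Cldn10, Cldn16 and Cldn19, against 14.4%). Cldn2 in capillaries was the single member with all 4 libraries above whole kidney, as were 6.08% of genes.

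Between compartments, 8 members were tested. Cldn10 was called lower in arterioles than in capillaries, 1 of 8 members against 4.96% of genes in that direction. Cldn2 and Cldn10 were called lower in glomeruli than in capillaries, 2 of 8 against 2.27%. No member was called between arterioles and glomeruli (2.18% of genes in either direction), arterioles and venules (4.37%), glomeruli and venules (1.22%) or capillaries and venules (0.386%). At an unadjusted p under 0.05 these 4 comparisons held 4, 4, 1 and 2 of the 8 members, and DESeq2 called 3, 3, 0 and 1. Of all genes tested, 22.69% had such a p between arterioles and venules. The share was 11.53% between glomeruli and venules and 11.25% between capillaries and venules. For arterioles and glomeruli it was 19.04%. The share of all genes called by DESeq2 is not given here.

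Ordered by group means, Cldn2 ran from capillaries through whole kidney, venules and arterioles to glomeruli, and Cldn10 from capillaries through whole kidney, venules and arterioles to glomeruli as well. Cldn1, Cldn3, Cldn4 and Cldn8 had their highest mean in venules, Cldn15 in capillaries, and Cldn16 and Cldn19 in whole kidney. Of the 36 pairs of neighbors in these orders, 31 overlapped. The 5 without overlap were Cldn2 in capillaries over whole kidney, Cldn10 in whole kidney over venules and in venules over arterioles (5.77% of all genes had venules above arterioles in this way), Cldn1 in whole kidney over capillaries, and Cldn3 in whole kidney over glomeruli. Each gave the smallest exact permutation p possible, 0.0286 (n = 4 each), and 0.206 after adjustment over the 36 pairs.

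**Figure D4:**
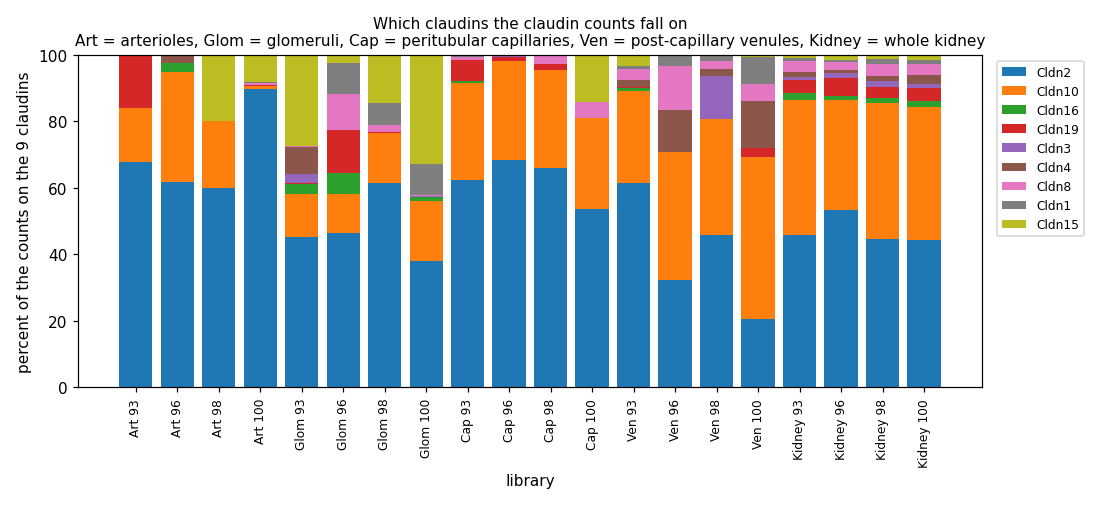
Share of the counts on the 9 claudins that fell on each, in percent, with 1 bar per library. Cldn2 and Cldn10 fill most of each whole kidney bar (Cldn2 44.2 to 53.2%), Cldn2 fills 89.8% of arteriole 100, and Cldn15 fills 14.4 to 33.0% of glomerular libraries 93, 98 and 100.

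The 9 claudins together held 39 counts in arteriole 96, 1017 to 3122 in the other arterioles, 1302 to 2411 in glomeruli, 1578 to 4739 in venules, 5841 to 6640 in capillaries and 5499 to 9357 in whole kidney. Whole kidney libraries were alike in composition, with Cldn10 at 33.2 to 41.0%. Capillaries 93, 96 and 98 resembled one another, with 29.1 to 29.9% on Cldn10 and 62.3 to 68.3% on Cldn2. Venules differed among themselves, with Cldn4 at 12.5 and 14.0% in libraries 96 and 100 and Cldn3 at 13.0% in library 98.

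Among the 12 other claudins, 4 passed the filter (Cldn5, Cldn7, Cldn11 and Cldn12), and Cldn5 was the only one called. Of 23 further tight junction genes, 1 was higher in arterioles and 4 were lower (beside 5.78% and 5.50% of all genes). EdgeR called none in the other compartments, and DESeq2 called 1, 0 and 0 in glomeruli, capillaries and venules. At an unadjusted p under 0.05 there were 3, 1 and 1 of the 23 in these compartments. Of all genes tested, 15.0%, 12.4% and 9.36% had such a p. Esam, an endothelial adhesion molecule, rose from 34.0 ± 4.88 CPM in whole kidney to 322 ± 185 in arterioles (log2 fold change 3.24 ± 0.67, FDR 0.00116). The epithelial polarity genes Crb3 and Patj, Marveld3, a relative of occludin, and Tjp3, a scaffold protein, fell. Crb3 stood at 0.0683 ± 0.0814 CPM in arterioles and 15.3 ± 2.97 in whole kidney (FDR 0.0167), and Tjp3 had no count in any arteriole library. The median log2 fold change of the 23 genes was -0.51 in arterioles, 0.20 in glomeruli, 0.61 in capillaries and 0.67 in venules.

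Of 13 genes of magnesium and calcium handling, a process that Cldn16 and Cldn19 serve, 12 passed the filter. In arterioles Atp2b4, a calcium pump of the plasma membrane, was higher (402 ± 254 against 17.5 ± 3.28 CPM, FDR 2.37e-04), and Fxyd2 and Kcnj10 were lower. Fxyd2, a subunit of the sodium pump, was also lower in glomeruli (882 ± 114 against 2261 ± 447 CPM, FDR 0.00231). S100g, the calcium-binding protein calbindin of the distal tubule, was higher in venules (5578 ± 769.8 against 1448 ± 156 CPM, FDR 0.00279). No gene of this list was called in capillaries by edgeR or DESeq2, and 1 had an unadjusted p under 0.05, as did 12.4% of all genes. Of all genes tested, 5.78% were called higher and 5.50% lower in arterioles, and 1.47% lower in glomeruli. In venules 0.224% were called in either direction.

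The genes most alike each abundant claudin across all 20 libraries, by the Pearson correlation of log2(CPM + 1), were Entpd5 (r = 0.93) and Atp5c1 (0.90) for Cldn2 and Pipox (0.94) and Slc3a1 (0.93) for Cldn10. Slc3a1 is a subunit of the proximal tubule transporter for cystine and dibasic amino acids, and Pipox is an enzyme of peroxisomes. Over the 16 microdissected libraries alone these values were 0.93, 0.90, 0.93 and 0.93. The genes were picked as the highest over 20 libraries that include these 16, so the later values are no separate check. For the other 7 members the highest values, 0.85 to 0.94, were with Rpl10a-ps1 (Cldn1), Rab42 (Cldn3), Mri1 (Cldn4), Ccdc141 (Cldn8), Dmap1 (Cldn15), Flad1 (Cldn16) and Ccpg1os (Cldn19). For genes that are near 0 in most libraries such a value rests on the few libraries that hold counts.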

How the data were processed

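The authors filtered reads with bbduk and used STAR (2.7) for alignment to GRCm38.p6 and HTSeq (0.13) for counting. They deposited raw counts per gene with no normalization. The submitters' processing notes also name GRCm39, FastQC, MultiQC, SAMtools and featureCounts without a role. The sources used here do not give the strand setting or any use of molecular identifiers. Of 168 columns of per-sample values, 20 were assigned to the 5 groups and 148 were not used. Nothing ties a column number to a labelled replicate.

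The members and lists were chosen with earlier results of these data known. Counts were fitted in R 4.3.3 with edgeR 4.0.16 (TMM, filterByExpr by group, quasi-likelihood test, Benjamini-Hochberg FDR), with 20 libraries for whole kidney and 16 for pairs of compartments. Calls needed FDR under 0.05 and a log2 fold change beyond 1. The SE is the absolute log2 fold change over the square root of F. Alternatives included DESeq2 1.42.0. Exact permutation tests used scipy 1.17.1. Counting intervals are exact binomial at 95% and belong to ratios of summed counts scaled by library size, not to ratios of mean CPM. The fit was tested on simulated data.

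The rule for names took all 9 members, the 2 genes with the smallest p of each list per comparison and the 2 genes most alike each member. List genes are printed here only where called, apart from Emcn, Cdh5, Slc12a1 and Egf in capillaries. The second most alike gene is printed only for Cldn2 and Cldn10. Same-numbered libraries of different groups did not deviate together (correlation over 0.1 in 2 of 40 pairs, median 0.0144).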

Additional observations from a re-analysis of the deposited data

Results flagged for a closer look

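In 14 of the 45 sets of 4 libraries (9 claudins in 5 groups), the gap from the highest library to the next took up more of the whole range than the 95% critical value of Dixon's test allows. For normally distributed values chance gives such a gap, at the lowest or the highest library, in about 1 in 20 sets. Most of these sets are near 0 counts, where a single library with counts gives such a gap by construction. The 14 of 45 is therefore not read as an excess. All 14 were high libraries of microdissected compartments, and none was in whole kidney or on Cldn1, Cldn2 or Cldn10. Cldn3 stood at 4.51 CPM in glomerulus 93 (next 0.221), 2.07 in capillary 96 (next 0.233) and 38.2 in venule 98 (next 0.784). Cldn4 stood at 14.4 CPM in glomerulus 93 (next 0.221), and Cldn8 at 28.2 in glomerulus 96 (next 3.58) and 1.25 in arteriole 100 (next 0). Cldn15 stood at 170.4 CPM in capillary 100 (next 4.23). Cldn16 stood at 5.72 CPM in capillary 93 (next 0.196) and 4.82 in venule 93 (next 0). Cldn19 stood at 50.7 CPM in arteriole 93 (next 0.357), 33.7 in glomerulus 96 (next 0.935) and 11.1 in venule 100 (next 0.672). For Cldn4 and Cldn16 in arteriole 96 the value was 0.161 CPM, which is 1 count each.

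Compartments differed from each other, by edgeR's quasi-likelihood test of the difference, for Cldn10 in arterioles against capillaries (log2 fold change -3.03, FDR 0.0255), Cldn10 in glomeruli against capillaries (-3.28, FDR 0.0297) and Cldn2 in glomeruli against capillaries (-2.59, FDR 0.0245). For each, all 4 libraries of the lower group lay below all 4 capillary libraries, and the share of all genes for which this was so was not counted. Without 1 library, the call ended in 8 of 8 fits for Cldn10 in glomeruli and in 6 of 8 for Cldn2 in glomeruli. For Cldn10 in arterioles it ended in 1 of 8.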

How the results depend on the processing

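Counts of called claudins changed with the test and the libraries fitted, and the cause was not tested. For claudins lower in arterioles than whole kidney (2), the count was 1 with no filter on low counts, 5 with DESeq2, 4 with the replicate block on the column number, 5 with only the 8 libraries compared, and 1 to 2 without 1 library. In glomeruli (1) it was 2 with the independent filter or the 8 libraries, the added gene being Cldn2. In capillaries (0) it was 1 (Cldn4) with DESeq2 or the 8 libraries. Between arterioles and glomeruli (0) and between arterioles and venules (0), DESeq2 called 3. Between arterioles and capillaries (1) the count was 2 with the independent filter or DESeq2, 0 with the 8 libraries and 0 to 2 without 1 library. For glomeruli and capillaries (2) it was 0 to 1 without 1 library, and for arterioles and venules 0 to 1. For glomeruli and venules the 8 libraries called 1 (Cldn10), and for capillaries and venules (0) DESeq2 and the 8 libraries called 1 each. The replicate block changed no other count, and the numbers were not found to pair the samples.

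The difference in the share on Cldn2 from whole kidney, in percentage points, was 22.8 in arterioles, 0.823 in glomeruli and 15.7 in capillaries. With all claudins as the denominator it turned to -22.6 in arterioles and -16.4 in glomeruli and was 14.1 in capillaries, where the adjusted p passed 0.05. As a percentage of the proximal tubule list the capillary value turned to -0.180. Without 1 library the glomerular difference ranged from -3.69 to 4.06. Of 504 log2 fold changes of single claudins under an alternative, 12 had the opposite sign. None of these was called. With the replicate block they were Cldn3 in venules (-1.14) and Cldn8 in capillaries (-0.44) and venules (-0.13), and with the 8 libraries Cldn8 in capillaries (-0.021). Without 1 library the ranges were -4.94 to 0.61 for Cldn3 and -0.40 to 0.60 for Cldn8 in venules, -1.12 to 0.48 for Cldn8, -0.066 to 0.12 for Cldn10 and -2.20 to 2.76 for Cldn15 in capillaries, and -0.73 to 1.72 for Cldn15 in arterioles.

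At 4639090 to 12283098 counts per library, a gene with at most 3 counts was near the limit of detection, and intervals cover counting error only.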
